A study of Mus musculus with 6 samples.

Results

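The genes described here are those of Golgi structure and of tethering between the endoplasmic reticulum (ER) and the Golgi. They were picked by symbol, as the numbered Golga, Tmed, Yipf, Cog and Trappc genes together with Gorasp1, Gorasp2, Golph3, Golph3l, Golim4, Golm1, Glg1, Gcc1, Gcc2 and Uso1. The rule found 53 of the 24214 RefSeq features counted in each sample. It used no measured value itself, but it was chosen with earlier results of these data known.

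The samples came from 393P, an epithelial lung adenocarcinoma (LUAD) line derived from a KP mouse tumor and labelled with the strain C57BL/6. Cells were transfected with ZEB1, a transcriptional repressor that activates epithelial-to-mesenchymal transition, giving 393P_ZEB1, or with the empty vector, giving 393P_vector. SOLiD sequencing of total RNA was done for 3 samples per condition, and the comparison asks which transcripts differ once ZEB1 is ectopically expressed. Transfectants were stable and drug-selected according to the study's methods. The sources used here do not say whether the replicates were separate transfections or cultures, so p-values measure the spread between these samples, which may be technical.

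Vesicles that leave the ER carry cargo selected by receptors, among them the p24 proteins encoded by the Tmed genes. Long coiled-coil golgins, the multisubunit COG complex and the TRAPP complexes catch such vesicles at Golgi membranes, and the GRASP proteins help to link Golgi stacks. YIPF proteins are multispanning membrane proteins of the same compartments that bind Rab GTPases. ZEB1 binds E-boxes in promoters, and it represses the miR-200 microRNAs, whose seed pairs with sites in the 3′ untranslated region (UTR) of target mRNAs.

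The mature microRNAs are shown because the study related ZEB1 to trafficking genes through miR-200. The study named no gene target for miR-206. It is included because its ectopic expression, like that of miR-200, moved transferrin to the periphery in a mesenchymal LUAD line. Capitals mark the seed, bases 2 to 8. The sequences are from RefSeq, build GRCm38.
miR-200a-3p: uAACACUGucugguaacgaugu
miR-141-3p: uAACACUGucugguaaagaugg
miR-200b-3p: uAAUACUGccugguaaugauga
miR-200c-3p: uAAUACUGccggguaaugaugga
miR-429-3p: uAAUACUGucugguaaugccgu
miR-206-3p: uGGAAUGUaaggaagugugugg
The miR-200 family thus fell into 2 seed groups, miR-200a with miR-141 and miR-200b with miR-200c and miR-429. A match to the first seed, CAGTGTT, stood in the 3′ UTR of 21% of the 12005 tested genes with an annotated 3′ UTR (GENCODE M21) and of 5 of the 50 tested Golgi genes. The match to the second, CAGTATT, stood in 15.7% of tested genes and in 7 of the 50. For miR-206 the match, ACATTCC, stood in 11.2% of tested genes and in 5 of the 50. All 3 shares among the Golgi genes were below those of all tested genes, and 3′ UTR length was not matched.

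Among the Golgi genes whose transcripts changed, the sites below stood in Glg1 and Golm1, which rose, for the miR-200a seed, and in Gcc1, which fell, for the miR-200b seed. Each window lies in the 3′ UTR on the minus strand of GRCm38, and capitals mark the match to seed bases 2 to 8.
Glg1, chr8:111156625-111156654: aggcactggctCAGTGTTacattttggtga
Golm1, chr13:59635634-59635663: caggcatgcttCAGTGTTtctaggaaatgg
Gcc1, chr6:28417772-28417801: cagggtactgcCAGTATTgagacagcatct
The Glg1 site lies in a part of the 3′ UTR that the feature counted by the authors, which begins at 111157558 of chromosome 8, does not reach. Matches to the miR-200a seed also stood in Tmed5, Tmed9 and Tmed10, and matches to the miR-200b seed in Cog5, Gcc2, Golga1, Golga7 and Golim4. Those of miR-206 included Trappc3, Trappc4, Yipf4 and Yipf6. None of these other genes passed the test described below. Yipf5, which passed it, held 2 matches to the miR-200b seed and 1 to that of miR-206. A match is a description of letters and not evidence that the site is used.

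The E-box CACCTG was searched on both strands (CACCTG or CAGGTG) in RefSeq promoters of 300 bases (GRCm38.p6), 250 before and 50 after the start site. It stood in 20.2% of all such promoters, in 17.5% of those of tested genes and in 10 of the 42 Golgi genes with a promoter in the table, or 23.8%. Of the genes that rose, 7 had a promoter and 1, Tmed4, held the E-box. All 4 that fell had one, and 1, Gcc1, held it. Both windows are shown with the E-box in capitals, on the minus strand.
Tmed4, chr11:6274812-6274841: gaggcgcaatggCAGGTGttggggtcggac
Gcc1, chr6:28421839-28421868: caaaccactgctCAGGTGcttgctctagac
In Tmed4 the E-box began 8 bases after the start site, and in Gcc1 it began at base -132 from it.

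Total counts ranged from 57844355 to 79158012 in 393P_vector and from 54442450 to 61251074 in 393P_ZEB1, so that 3 counts, taken as the smallest detectable level, corresponded to 0.0379 to 0.0551 CPM, the read count relative to the library size after TMM normalization. This floor covers counting error only. Zeb1 itself was at 21.2, 22 and 21.4 CPM in 393P_vector and at 54.9, 48.9 and 51.2 CPM in 393P_ZEB1, a log2 fold change of 1.26 (adjusted p = 6.06e-05), and these counts may include reads of the transgene. Epcam fell by 6.53 and Cdh1 by 4.09 on the log2 scale, Vim rose by 0.41, and 9 of 10 epithelial markers fell while 6 of 8 mesenchymal markers rose. Immune and endothelial markers summed to 5.13 to 7.15 CPM in 393P_vector and 2.39 to 3.01 CPM in 393P_ZEB1, with 6 of 10 tested and 2, Csf1r and Kdr, lower. Neither exceeded 2.04 CPM in any sample, and the part of such transcripts in the results below was not tested. Lung alveolar markers summed to at most 0.918 CPM in any sample, although the tissue label is lung. The third 393P_vector sample stood apart: it differed by 1.5-fold or more from the other 393P_vector samples for 26.3% and 30.6% of all tested genes, against 7.06% to 10.5% for every other pair of samples within a group. Over the 50 tested Golgi genes it differed so for 9 and 13, against 0 to 2 for the other pairs, and the counts of calls over the Golgi genes, their groups and the other lists are therefore also given without it.

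Ectopic ZEB1 was accompanied by small changes in both directions among the Golgi genes. Of the 53, 50 passed the filter on low counts, and of these 10 were higher and 4 lower in 393P_ZEB1 at an adjusted p under 0.05 (edgeR's quasi-likelihood test, adjusted over the 13892 genes tested). The largest increase was that of Golm1, 1.76-fold, and the largest decrease that of Trappc10, to 0.64 of the 393P_vector level. Across all tested genes, 18.3% were higher, 19.3% lower and 37.6% either, so the Golgi genes' 20% higher was near the background, and their 8% lower and 28% either lay below it. The median log2 fold change was 0.08 over the Golgi genes, which ranged from -0.65 to 0.82, and -0.02 over all tested genes. Yipf7, Tmed11 and Tmed6 did not pass the filter, with 0 to 2, 0 to 2 and 0 to 7 counts per sample.

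With all 6 samples, Golm1 and Glg1 were the 2 increases among 5 Golgi membrane proteins, and 3 of 9 p24 genes and 2 of 6 YIPF genes rose, with no decrease in these groups. In the tether groups, 1 of 11 golgin and GRASP genes rose and 1 fell, 1 of 8 COG genes rose and 1 fell, and 1 of 11 TRAPP genes rose and 2 fell. Without 393P_vector replicate 3, 4 Golgi membrane proteins, 5 p24 genes and 2 YIPF genes rose and none fell, 1 golgin or GRASP gene rose and 2 fell, 2 COG genes rose and 1 fell, and 5 TRAPP genes rose and 3 fell. The TRAPP genes thus went from 27.3% called, below the 37.6% of all tested genes, to 72.7%, above the 53.0% of all tested genes without that sample. These groups are small, and the difference between them was not tested. In bulk RNA, fewer cells of a kind and less RNA per cell cannot be told apart.

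**Figure D1:**
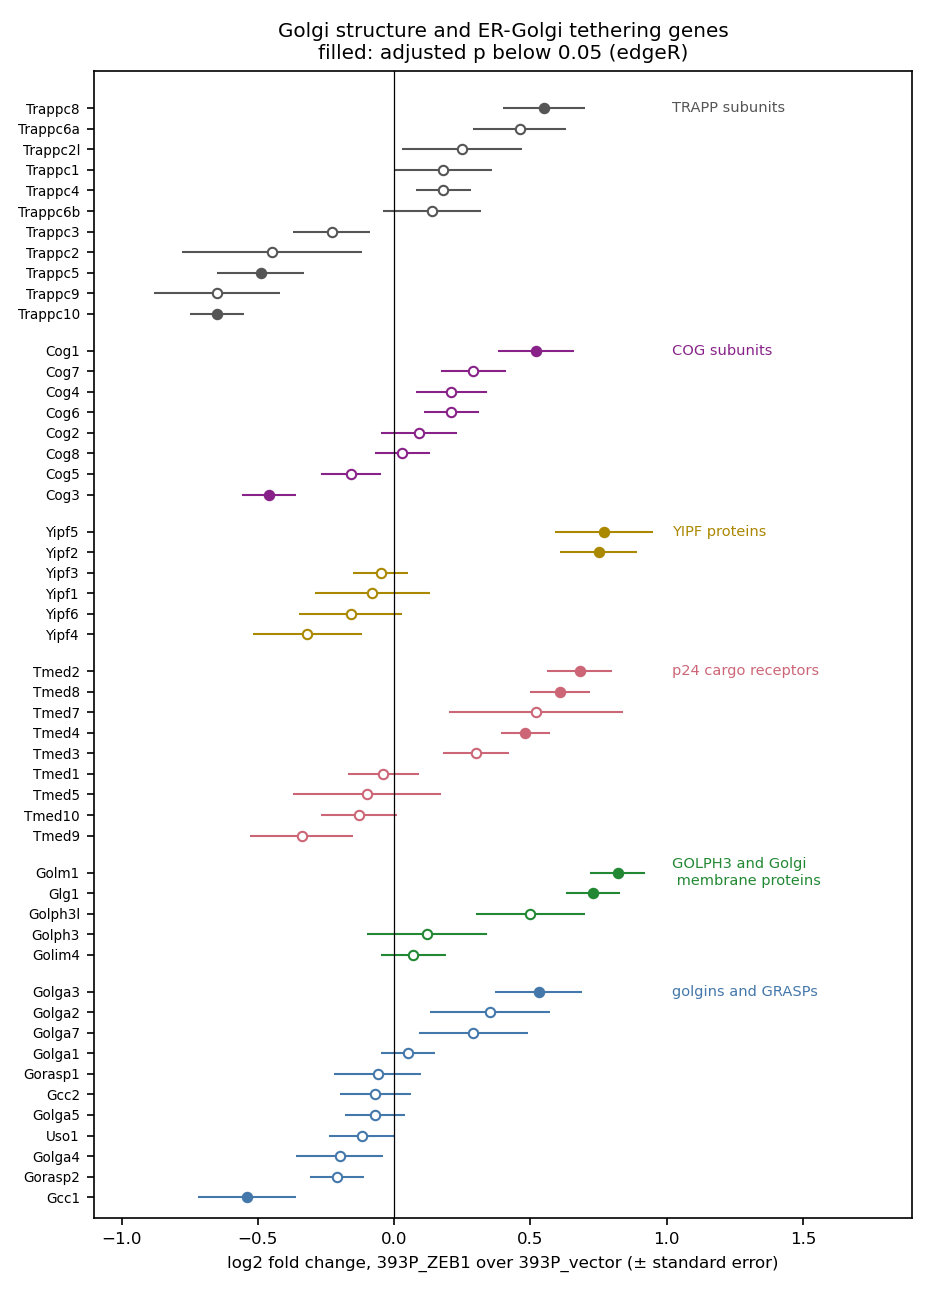
Log2 fold change (x axis, 393P_ZEB1 over 393P_vector, with standard error) of the 50 tested Golgi genes, in groups by role, with filled points for an adjusted p below 0.05. The 14 filled points comprise 10 to the right of 0 and 4 to the left, and none lies beyond -0.65 or 0.82.

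Per kilobase of exon, the median of 3 samples in 393P_vector spanned 37.5-fold within the p24 genes, from 2.8 CPM per kb for Tmed8 to 105 for Tmed9. It spanned 35.1-fold within the TRAPP genes, from 1.18 for Trappc2 to 41.4 for Trappc4, and 3.6-fold within the COG genes, from 9.71 for Cog3 to 35 for Cog4. Golgins and GRASPs ran from 7.34 for Gorasp1 to 64.3 for Gorasp2. In 393P_ZEB1 the same genes marked both ends of each of these 4 groups. The spread of levels between genes of a group was thus wider than any change between conditions.

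**Figure D2:**
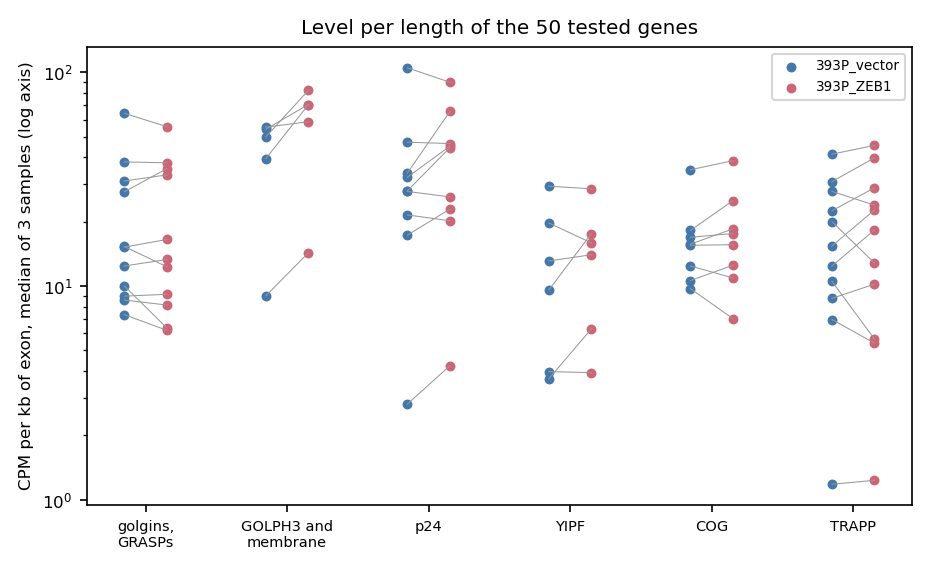
Level per length (y axis, CPM per kb of exon, median of 3 samples, log axis) of the 50 tested genes by group, with a line joining each gene's 393P_vector and 393P_ZEB1 values. Tmed9 is the highest at 105 in 393P_vector and Trappc2 the lowest at 1.18.

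Among golgins, Golga3 rose and Gcc1 fell. Golga3 encodes golgin-160, a coiled-coil protein on the cytoplasmic side of the Golgi, and was at 137, 132 and 94 CPM in 393P_vector replicates 1 to 3 and at 170, 165 and 191 CPM in 393P_ZEB1. All 3 393P_ZEB1 samples were above all 393P_vector samples, and 393P_vector replicate 3 was the lowest of the 6. The log2 fold change was 0.53 ± 0.16 (standard error, n = 3 per group, edgeR adjusted p = 0.0326). Without any 1 of the 393P_ZEB1 replicates the call was lost, with an adjusted p up to 0.109. The gene spans chr5:110176701-110223155.

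Gcc1 (chr6:28416603-28421724), a golgin of the trans-Golgi that captures vesicles from endosomes, was at 41.5, 43.3 and 28.1 CPM in 393P_vector and at 26.3, 23.6 and 27.6 CPM in 393P_ZEB1. The groups did not overlap, but 393P_vector replicate 3 lay within 1 CPM of the highest 393P_ZEB1 sample. Gcc1 fell by 0.54 ± 0.18 on the log2 scale (adjusted p = 0.0461). Without 393P_vector replicate 3 the change was -0.72 (adjusted p = 0.000135), and without any other 1 sample the call was lost, with an adjusted p up to 0.156.

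Golga4, like Gcc1 a golgin of the trans-Golgi, was at 115, 123 and 86.1 CPM in 393P_vector and at 92.1, 84.4 and 105 CPM in 393P_ZEB1. The groups overlapped through 393P_vector replicate 3, and the log2 fold change of -0.20 ± 0.16 did not pass (adjusted p = 0.346). It passed without that sample, at -0.34 (adjusted p = 0.0134).

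The other 8 golgin and GRASP genes were Golga1, Golga2, Golga5, Golga7, Gcc2, Gorasp1, Gorasp2 and Uso1. Their log2 fold changes ran from -0.21 to 0.35, with standard errors of 0.1 to 0.22 and adjusted p of 0.156 to 0.791. Golga2, which encodes the cis-Golgi golgin GM130, was at 137, 145 and 77.5 CPM in 393P_vector and at 146, 146 and 166 CPM in 393P_ZEB1. Its value of 0.35 ± 0.22 (adjusted p = 0.252) shrank to 0.12 without 393P_vector replicate 3. Uso1, the vesicle tether p115, was at 148, 145 and 179 CPM in 393P_vector and at 136, 152 and 146 CPM in 393P_ZEB1, an overlap of the groups. Gorasp1 shares sequence with Wdr48 on the opposite strand.

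Golm1 and Glg1, membrane proteins of the Golgi, gave the clearest increases. Golm1 (chr13:59634996-59675784), which encodes the cis-Golgi protein GP73, was at 140, 148 and 146 CPM in 393P_vector and at 238, 266 and 260 CPM in 393P_ZEB1. The lowest 393P_ZEB1 sample was well above the highest 393P_vector sample, and 393P_vector replicate 3 lay between the other 2. Golm1 rose by 0.82 ± 0.10 on the log2 scale (adjusted p = 0.00041), passed in all 6 fits that left out 1 sample, and was the only Golgi gene past a test against a fold change of 1.5.

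Glg1 (chr8:111157558-111259202), a sialoglycoprotein of the Golgi that binds fibroblast growth factors, was at 207, 183 and 192 CPM in 393P_vector and at 311, 317 and 340 CPM in 393P_ZEB1. No sample of one group came near the other. The increase was 1.66-fold, or 0.73 ± 0.10 on the log2 scale (adjusted p = 0.000891), and held in all 6 fits that left out 1 sample. Glg1 and Yipf5 were among the trafficking genes that the study examined. The study picked such genes from these sequencing data as raised by ZEB1, and then measured several by quantitative PCR. The direction of Glg1 and Yipf5 here is therefore not independent evidence.

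Golph3, a phosphoinositide-binding protein that links the Golgi to actomyosin, and its paralog Golph3l differed between 393P_vector samples. Golph3 was at 141, 130 and 234 CPM in 393P_vector and at 199, 184 and 165 CPM in 393P_ZEB1, so that the highest and the lowest samples were both 393P_vector. Its log2 fold change was 0.12 ± 0.22 (adjusted p = 0.71), and 0.43 without 393P_vector replicate 3 (adjusted p = 0.00277). Without 393P_vector replicate 2 its sign turned, to -0.03.

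Golph3l was at 25.5, 23.3 and 39.6 CPM in 393P_vector and at 44.9, 39.7 and 40.5 CPM in 393P_ZEB1. The third 393P_vector sample touched the 393P_ZEB1 range from below. The change of 0.50 ± 0.20 did not pass (adjusted p = 0.0925), and without that sample it was 0.77 (adjusted p = 8.9e-05). Golim4, a cis-Golgi protein that cycles through endosomes, overlapped between the groups at 0.07 ± 0.12 (adjusted p = 0.685).

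Among p24 genes Tmed2, Tmed8 and Tmed4 rose, and each passed in all 6 fits that left out 1 sample, although Tmed4 did not pass relative to its chromosome (0.21, adjusted p = 0.12). Tmed2 (chr5:124540791-124550503), the only p24 gene of the beta subfamily, was at 59.5, 54.9 and 52.9 CPM in 393P_vector and at 99.9, 87.5 and 80.4 CPM in 393P_ZEB1. The groups were well apart. The increase was 1.6-fold, or 0.68 ± 0.12 on the log2 scale (adjusted p = 0.00304).

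Tmed4 (chr11:6270714-6274837), of the alpha subfamily, was at 51.3, 53.2 and 52.4 CPM in 393P_vector and at 72, 73 and 73.7 CPM in 393P_ZEB1. Replicates of both groups lay within 2 CPM of each other, and 393P_vector replicate 3 did not stand apart. Tmed4 rose by 0.48 ± 0.09 on the log2 scale (adjusted p = 0.00501). Tmed8 (chr12:87166242-87200229), which shares the cargo-binding GOLD domain with the p24 proteins, was at 20.6, 20.1 and 19.7 CPM in 393P_vector and at 33, 28.7 and 30.4 CPM in 393P_ZEB1. Its increase, again without overlap, was 0.61 ± 0.11 on the log2 scale (adjusted p = 0.0037).

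Tmed3 and Tmed7, both of the gamma subfamily, did not pass the test with all samples. Tmed3 was at 22.5, 22.8 and 26.2 CPM in 393P_vector and at 27.6, 30.2 and 30.2 CPM in 393P_ZEB1, without overlap, and its log2 fold change of 0.30 ± 0.12 (adjusted p = 0.0808) became 0.37 without 393P_vector replicate 3 (adjusted p = 0.00734). Tmed7 was at 116, 93.5 and 238 CPM in 393P_vector and at 226, 228 and 187 CPM in 393P_ZEB1. The third 393P_vector sample was the highest of all 6, at 2.26 times the mean of the other 2 393P_vector samples. With it the log2 fold change was 0.52 ± 0.32 (adjusted p = 0.242), and without it 1.03 (adjusted p = 5.95e-05).

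The remaining tested p24 genes, Tmed1, Tmed5, Tmed9 and Tmed10, overlapped between groups, with log2 fold changes of -0.34 to -0.04 and adjusted p of 0.206 to 0.851. Tmed10, the only gene of the delta subfamily and a partner of Tmed2 in p24 complexes, was at 75.8, 71.9 and 92.8 CPM in 393P_vector and at 83, 71 and 66.4 CPM in 393P_ZEB1. Tmed9, of the alpha subfamily, was at 152, 176 and 129 CPM in 393P_vector and at 88.7, 130 and 142 CPM in 393P_ZEB1, a wide spread within both groups. Tmed5 spread from 136 to 271 CPM within 393P_vector. Tmed1 shares sequence with Dnm2 on the opposite strand.

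**Figure D3:**
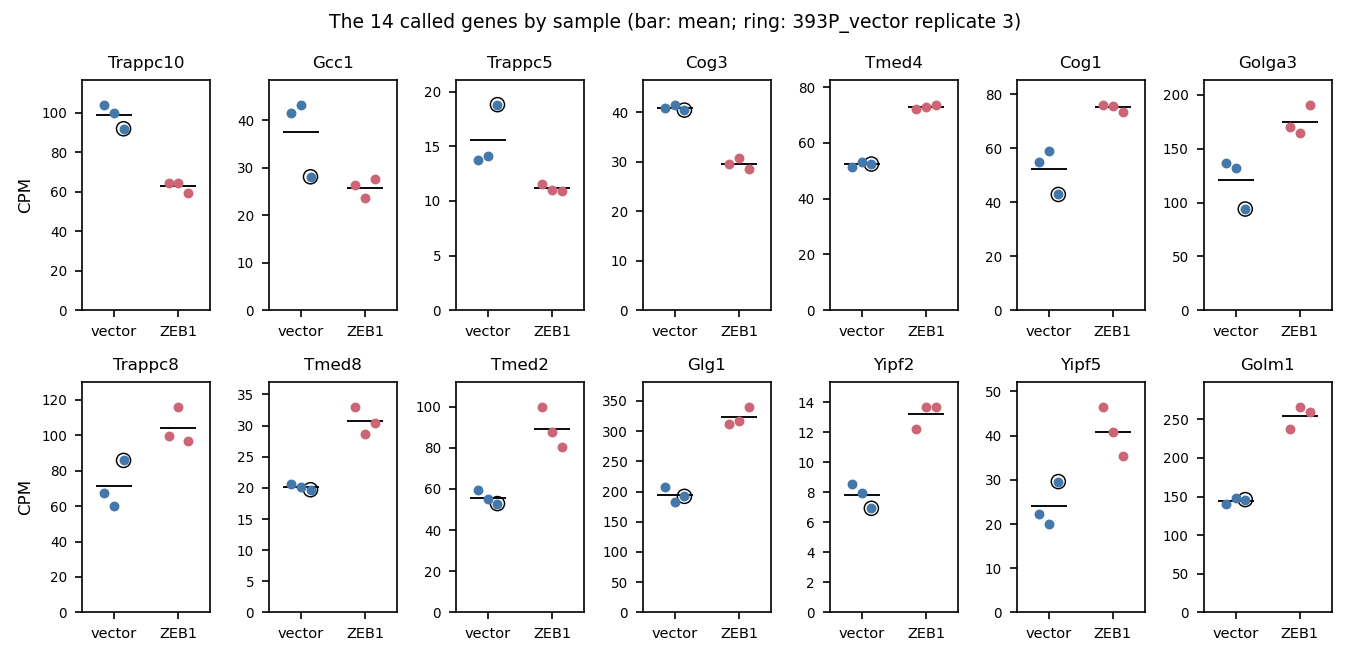
CPM (y axis, starting at 0) of the 14 Golgi genes that passed the test, in the 3 393P_vector and 3 393P_ZEB1 samples, with a bar at each mean and a ring around 393P_vector replicate 3. The groups do not overlap in any panel, and in Gcc1 the ringed sample, at 28.1 CPM, lies close to the 393P_ZEB1 samples.

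Yipf5 and Yipf2 rose among the YIPF genes. Yipf5, a protein of ER exit sites and the early Golgi, lies on chromosome 18 from 40204865 to 40219399 and was at 22.3, 20.1 and 29.6 CPM in 393P_vector and at 46.5, 40.8 and 35.4 CPM in 393P_ZEB1. The groups were apart, with 393P_vector replicate 3 the nearest to 393P_ZEB1. The increase was 1.7-fold, or 0.77 ± 0.18 on the log2 scale (adjusted p = 0.012), and without 393P_ZEB1 replicate 1 it no longer passed (adjusted p = 0.0535).

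Yipf2 (chr9:21588682-21592831), a related protein of the Golgi, was at 8.55, 7.99 and 6.94 CPM in 393P_vector and at 12.2, 13.7 and 13.7 CPM in 393P_ZEB1. All 393P_ZEB1 samples were higher than all 393P_vector samples. Yipf2 rose by 0.75 ± 0.14 on the log2 scale (adjusted p = 0.00415) and passed in all 6 fits that left out 1 sample. It overlaps Carm1 and 1810026J23Rik on the opposite strand, and whether the counting used strand is not given in the sources used here. Yipf1, Yipf3, Yipf4 and Yipf6 overlapped between the groups, with log2 fold changes of -0.32 to -0.05 and adjusted p of 0.247 to 0.776.

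In the COG complex, a tether for vesicles that move within the Golgi, Cog1 rose and Cog3 fell, and both encode subunits of lobe A. Cog1 (chr11:113649529-113662401) was at 55, 59.1 and 42.9 CPM in 393P_vector and at 76.2, 75.8 and 73.5 CPM in 393P_ZEB1. The groups did not overlap, and 393P_vector replicate 3 was the lowest sample. The log2 fold change was 0.52 ± 0.14 (adjusted p = 0.0192), and without any 1 of the 393P_ZEB1 replicates the call was lost (adjusted p up to 0.0662). Cog1 overlaps D11Wsu99e on the opposite strand.

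Cog3 (chr14:75702351-75754493) was at 40.8, 41.5 and 40.4 CPM in 393P_vector and at 29.5, 30.7 and 28.6 CPM in 393P_ZEB1. Both groups were tight and well apart, with 393P_vector replicate 3 beside the other 2. Cog3 fell by 0.46 ± 0.10 on the log2 scale (adjusted p = 0.00834), and without 393P_ZEB1 replicate 3 it no longer passed (adjusted p = 0.0534).

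Cog6, a subunit of lobe B, was at 45.3, 45.5 and 48.6 CPM in 393P_vector and at 53.6, 54.6 and 53.1 CPM in 393P_ZEB1. Its groups did not overlap, but the log2 fold change of 0.21 ± 0.10 did not pass (adjusted p = 0.128) except without 393P_vector replicate 3, where it was 0.24 (adjusted p = 0.0249). The other 5, Cog2, Cog4, Cog5, Cog7 and Cog8, had log2 fold changes of -0.16 to 0.29 and adjusted p of 0.0922 to 0.832. Cog8 was at 35.4, 36.5 and 35.3 CPM in 393P_vector and at 37.1, 36.9 and 35.6 CPM in 393P_ZEB1, the smallest difference of the complex at 0.03 ± 0.10. Cog5 overlaps Gpr22 and Hbp1 on the opposite strand, and Cog7 overlaps Mir1196 on the same strand.

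TRAPP complexes share a core of small subunits and differ in the large ones: Trappc9 and Trappc10 belong to TRAPPII, and Trappc8 to TRAPPIII. Trappc10 (chr10:78186726-78244642) was at 104, 100 and 91.8 CPM in 393P_vector and at 64.5, 64.5 and 59.2 CPM in 393P_ZEB1. The groups were far apart. Trappc10 fell by 0.65 ± 0.10 on the log2 scale (adjusted p = 0.00174), passed in all 6 fits that left out 1 sample, and was the most firmly decreased of the Golgi genes. The median log2 fold change of its chromosome was -0.30, and that of the 20 tested genes nearest to it -0.54. Relative to the chromosome its change was -0.36 (edgeR adjusted p = 0.0301).

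Trappc9, the other TRAPPII subunit, was at 80.6, 78.3 and 42.4 CPM in 393P_vector and at 41.6, 44.6 and 42 CPM in 393P_ZEB1. The third 393P_vector sample lay inside the 393P_ZEB1 range, at 0.53 of the mean of the other 2. With it, the log2 fold change of -0.65 ± 0.23 did not pass (adjusted p = 0.0611), and without it the value was -0.90 (adjusted p = 6.31e-06). Trappc9 contains Peg13 on the same strand.

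Trappc8 lies on chromosome 18 from 20817224 to 20896078 and was at 67.4, 60.3 and 85.8 CPM in 393P_vector and at 99.8, 116 and 96.6 CPM in 393P_ZEB1. The groups did not overlap, with 393P_vector replicate 3 the nearest to 393P_ZEB1. Trappc8 rose by 0.55 ± 0.15 on the log2 scale (adjusted p = 0.0255), and of the fits that left out 1 sample only that without 393P_vector replicate 3 kept the call, at 0.71, while the others gave an adjusted p up to 0.1.

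Trappc5, a core subunit (chr8:3676477-3680921), was at 13.7, 14.1 and 18.8 CPM in 393P_vector and at 11.5, 11 and 10.9 CPM in 393P_ZEB1. The highest sample was 393P_vector replicate 3, and the groups did not overlap. It fell by 0.49 ± 0.16 on the log2 scale (adjusted p = 0.0432). Without 393P_vector replicate 3 the change was -0.32 (adjusted p = 0.0276), a decrease that no other such fit called (adjusted p up to 0.139).

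Core subunits Trappc1, Trappc2l and Trappc6b overlapped between the groups only through 393P_vector replicate 3. Trappc1 was at 16.7, 16.2 and 24.3 CPM in 393P_vector and at 21.3, 20.1 and 23.2 CPM in 393P_ZEB1, and its log2 fold change of 0.18 (adjusted p = 0.475) was 0.39 without that sample (adjusted p = 0.0103). Trappc2l was at 9.17, 9.31 and 15.8 CPM in 393P_vector and at 12.9, 13.7 and 14 CPM in 393P_ZEB1, with 0.25 (adjusted p = 0.424) and then 0.55 (adjusted p = 0.00213). Trappc6b was at 10.9, 10.3 and 15.3 CPM in 393P_vector and at 12.7, 14.8 and 12.7 CPM in 393P_ZEB1, with 0.14 (adjusted p = 0.591) and then 0.33 (adjusted p = 0.0418). In all 3 the outlying sample was the highest of the 6.

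Trappc6a, the paralog of Trappc6b, was at 23.5, 25.4 and 16.5 CPM in 393P_vector and at 29.3, 30.6 and 30.3 CPM in 393P_ZEB1. Here 393P_vector replicate 3 was the lowest sample, and the groups did not overlap. The log2 fold change of 0.46 ± 0.17 did not pass (adjusted p = 0.0641) except without 393P_vector replicate 2, at 0.59 (adjusted p = 0.0406), or replicate 3, at 0.30 (adjusted p = 0.0187). Trappc2, Trappc3 and Trappc4 had log2 fold changes of -0.45 to 0.18 and adjusted p of 0.214 to 0.328. Trappc2 was at 0.883 to 1.88 CPM in 393P_vector and at 0.828 to 0.95 CPM in 393P_ZEB1. Per kilobase of exon it was the lowest of the tested Golgi genes.

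TRAPP subunits that the tables list under older symbols, and that the rule therefore missed, were read separately. D030016E14Rik (Trappc11) was at -0.10 (adjusted p = 0.436) and 2410002O22Rik (Trappc13) at -0.29 (adjusted p = 0.343) on the log2 scale. Ttc15 (Trappc12) was at 55.2, 57.7 and 43.4 CPM in 393P_vector and at 68, 75.4 and 72 CPM in 393P_ZEB1 and rose by 0.46 (adjusted p = 0.0279). All 3 belong with Trappc8 to TRAPPIII.

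Across the 50 tested genes, 393P_ZEB1 lay wholly above 393P_vector for 17 and wholly below for 6. Over all tested genes these shares were 26.3% and 26.5%, so the Golgi genes' count above, 34%, was somewhat over the background and that below, 12%, under it. In an exact two-sided permutation test of log2 CPM, each of these 23 genes gave p = 0.1, the smallest that 3 samples against 3 allow. Groups that do not overlap give this value by construction, so it adds no support.

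Without 393P_vector replicate 3, 19 Golgi genes were higher and 6 lower in 393P_ZEB1, 25 of 50 or 50%. These included all 14 that passed with every sample and 11 more. The background rose as well: without that sample 26.2% of all tested genes were higher, 26.8% lower and 53.0% either. The Golgi share higher, 38%, then lay above the background and the share lower, 12%, below it. The sample lay outside the range of the other 5 for 30 of the 50 genes, and at 1.5-fold or more from the mean of the other 2 393P_vector samples for 11.

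**Figure D4:**
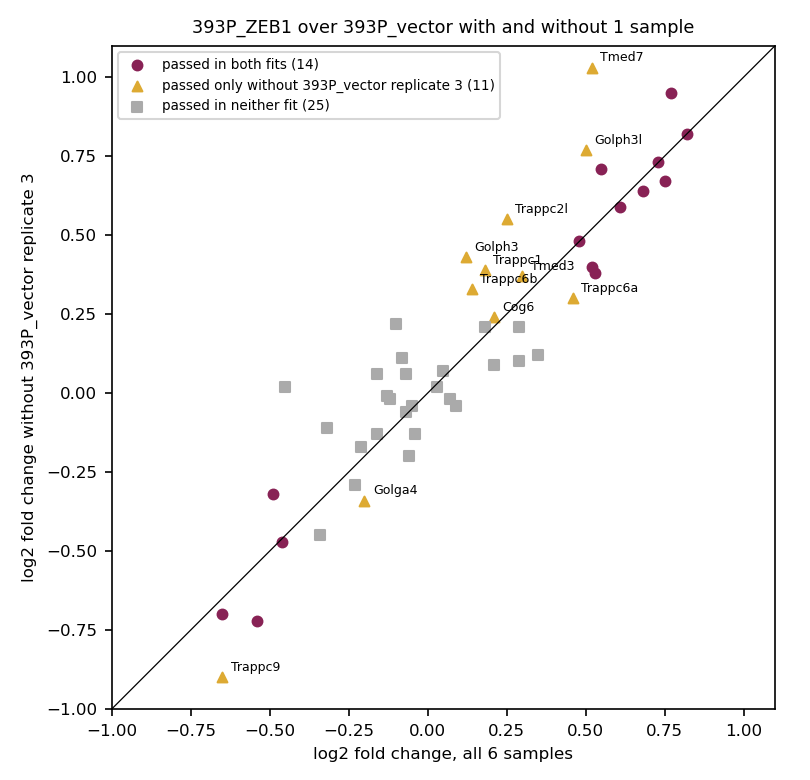
Log2 fold change (393P_ZEB1 over 393P_vector) of the 50 tested genes with all 6 samples (x axis) and without 393P_vector replicate 3 (y axis), with a line of equality. All 14 genes called with 6 samples were called without it, and the 11 triangles are the genes called only without it, such as Tmed7 at 0.52 and 1.03.

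Genes of a chromosome tended to differ together between the groups. The median log2 fold change of all tested genes was 0.64 on chromosome 18, 0.27 on 11, -0.26 on 14, -0.30 on 10, -0.33 on 15, -0.36 on 6 and -0.43 on 17, the 7 autosomes whose median, to 2 decimals, lay further than 0.25 from 0. Chromosome 16, which holds no Golgi gene of the rule, was at 0.25. The largest shift was that of chromosome Y, at -6.89 over 6 tested genes, none of them a Golgi gene. Of the 50 Golgi genes, 14 lay on the 7 autosomes named, 7 of them among the 14 called. All 7 differed in the direction of their chromosome. The same shares were not counted over all tested genes of these autosomes. Neither count can therefore be read as particular to the Golgi genes. The median was near that of all genes on chromosomes 8 and 5, at -0.05 and 0.07, where Glg1, Trappc5, Tmed2 and Golga3 lie. Zeb1 itself lies on chromosome 18. The origin of the chromosome medians was not tested.

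Relative to the median of its chromosome, entered as an offset in the same edgeR fit, 7 Golgi genes were higher and 1 was lower. Over all tested genes 16.1% were then higher, 14.3% lower and 30.4% either, against 14% and 2% of the Golgi genes. Golm1, Glg1, Yipf2, Tmed2, Tmed8 and Trappc10 passed in both ways, and these 6 also passed in all 6 fits that left out 1 sample. Trappc10 was the remaining decrease, at -0.36 (adjusted p = 0.0301). Tmed3, at 0.44 (adjusted p = 0.0244), and Yipf3, at 0.38 (adjusted p = 0.0265), were called only relative to the chromosome. Golga3 (0.46, adjusted p = 0.0636), Trappc5 (-0.44, adjusted p = 0.07), Cog1 (0.26, adjusted p = 0.195), Cog3 (-0.20, adjusted p = 0.17) and Gcc1 (-0.19, adjusted p = 0.469) lost their calls, as did Tmed4, Yipf5 and Trappc8. Yipf3 falls outside the rule for genes given with values and was named after its values were seen.

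Yipf5 and Trappc8, both on chromosome 18, were at 0.13 (adjusted p = 0.612) and -0.09 (adjusted p = 0.713) relative to it, and Tmed7, on the same chromosome, was at -0.12 (adjusted p = 0.822). The 20 tested genes nearest to Yipf5 had a median log2 fold change of 0.95, those nearest to Trappc8 0.74, and those nearest to Cog1 on chromosome 11 0.86, each above the gene between them. Cog3, at -0.46, stood beside neighbours with a median of -0.60, and Trappc10 beside neighbours with a median of -0.54. For Glg1, Golm1, Yipf2 and Tmed8 the neighbours' medians were 0.11, 0.25, -0.20 and -0.43, and for Tmed2, itself at 0.68, the neighbours' median was 0.50. Leaving out chromosome 18, 8 of 47 Golgi genes were higher and 4 lower, or 17% and 8.51%. Over all tested genes, with chromosome 18 included, 18.3% were higher and 19.3% lower.

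**Figure D5:**
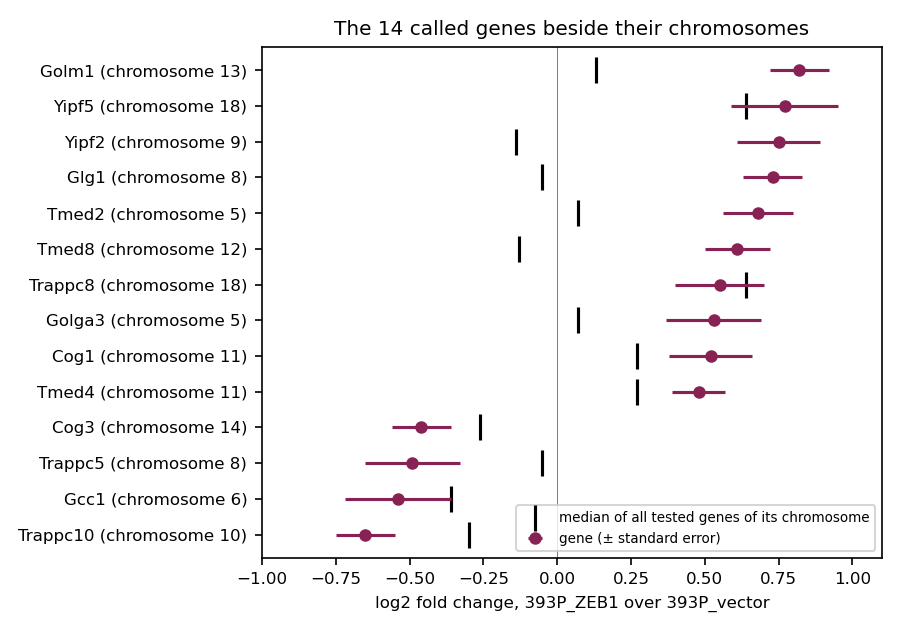
Log2 fold change (x axis, 393P_ZEB1 over 393P_vector) of the 14 called Golgi genes with their standard errors, and as a bar the median of all tested genes on the same chromosome. Yipf5 and Trappc8 lie close to the chromosome 18 median of 0.64, while Golm1, Yipf2, Glg1, Tmed2 and Tmed8 lie well to the right of theirs.

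Other genes of the early secretory pathway, in 6 lists, were read in the same fit. Of these 95 genes, 90 were tested, 11 were higher and 6 lower, or 18.9%, below the background of 37.6%, and the median log2 fold change was 0.05. Without 393P_vector replicate 3, 24 were higher and 19 lower, or 47.8%, nearer to the 53.0% of all tested genes. The share higher, 26.7%, was then close to the 26.2% of all tested genes, and the share lower, 21.1%, below their 26.8%. Relative to the chromosome median 6 were higher and 1 lower, or 6.67% and 1.11%, against 16.1% and 14.3% of all tested genes.

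In the COPII coat, which buds vesicles from the ER, 1 of 17 rose and 1 fell, against 4 and 5 without 393P_vector replicate 3. Sec16b, a scaffold of ER exit sites, was at 0.0706, 0.255 and 0.18 CPM in 393P_vector and at 3.49, 3.85 and 4.27 CPM in 393P_ZEB1, an increase of 4.49 ± 0.36 on the log2 scale (adjusted p = 5.07e-05). Sec13, of the outer coat, fell by 0.65 (adjusted p = 0.0383), with 79.3, 83.4 and 135 CPM in 393P_vector. Without 393P_vector replicate 3 its change was -0.36 (adjusted p = 0.00253), and the median of its chromosome, 6, was -0.36. In the COPI coat, which returns vesicles from the Golgi, 1 of 13 changed, Copz1, which fell by 0.59 (adjusted p = 0.00311). The median of its chromosome, 15, was -0.33. Without 393P_vector replicate 3, 4 genes of this coat rose and 3 fell.

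Of 14 ER-Golgi SNAREs and their partners, Gosr1 rose by 0.47 (adjusted p = 0.00655) and Stx5a by 0.38 (adjusted p = 0.0215), both fusion proteins of the early Golgi, and none fell, against 3 and 1 without 393P_vector replicate 3. Of 16 tested cargo receptors, the mannose-binding Lman1 rose by 0.65 (adjusted p = 0.00152), a value close to the median of its chromosome, 18. The receptors for escaped ER proteins moved apart: Kdelr2 rose by 0.51 (adjusted p = 0.0143) and Kdelr3 fell by 0.45 (adjusted p = 0.0308). The medians of their chromosomes, 5 and 15, were 0.07 and -0.33. Ergic1, of the ER-Golgi intermediate compartment, fell by 0.45 (adjusted p = 0.0111), close to the median of its chromosome, 17, at -0.43. The receptors counted 2 higher and 2 lower, and 4 and 3 without that sample.

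Golgins and Golgi matrix genes under other symbols held the largest share of calls among these lists, 5 of 16 higher and 1 lower, or 37.5%, close to the background, and 6 higher and 4 lower without 393P_vector replicate 3. Bicd1, an adaptor between Golgi vesicles and dynein, rose by 0.87 (adjusted p = 0.000919), and Golgb1, which encodes the golgin giantin, by 0.65 (adjusted p = 0.021). Clasp2, which anchors microtubules at the trans-Golgi, fell by 0.33 (adjusted p = 0.0427). Of 14 other tethers and Golgi GTPases, Rab1, the GTPase that TRAPP complexes and golgins act with, rose by 0.45 (adjusted p = 0.0263). Rab6b fell from 10, 10.2 and 8.89 CPM to 3.94, 4.17 and 3.82 CPM, a log2 fold change of -1.29 (adjusted p = 0.00027). These tethers counted 1 higher and 1 lower, and 3 and 3 without that sample. The chromosome median was 0.27 for Rab1 and Gosr1, 0.25 for Golgb1, -0.36 for Bicd1 and -0.14 for Clasp2 and Rab6b.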

How the data were processed

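The 6 samples were grouped by the vector in their labels, and none was left out of the main comparison. The authors deposited, for each sample, a table of raw read counts per RefSeq feature with the exon length, the RPKM (the count scaled by exon length and total reads) and the number of exons with more than 10 reads. The RPKM and exon numbers were not used. Aligner, counting program and use of strand are not given in the sources used here, and the coordinates match GRCm38.

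The counts were analysed with edgeR 4.0.16 (R 4.3.3): filterByExpr with a minimum count of 10 kept 13892 genes, TMM factors were 0.9789 to 1.0499, and a robust quasi-likelihood test compared the groups without a block, with Benjamini-Hochberg adjustment and 0.05 as the threshold. edgeR estimated a biological coefficient of variation of 0.184. CPM used the TMM-scaled library sizes, and ± after a log2 fold change is its standard error. The fit was tested on simulated data with the same variation for every gene and changes larger than those of the Golgi genes. That simulation held no outlying sample and no shift by chromosome, so it does not cover these features of the data.

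The Golgi genes and the lists were chosen with earlier results of these data known. Values in every sample were given for genes past the threshold, at 1.5-fold or more, or crossing the threshold when 1 sample was left out, and the other genes by ranges, with a few examples. From each list of other genes, the 2 largest increases and decreases past the threshold were named. Seed matches were sought in 1 annotated 3′ UTR per gene, that of its longest protein-coding transcript (GENCODE M21). Promoters were matched by symbol, taking the start site nearest to the feature's 5′ end. Alternatives were DESeq2 1.42.0, its size factors, limma 3.58.1 voom with sample weights, other filters, a replicate block, a threshold of 0.01, a test against a fold change of 1.5, leaving out each sample, and, chosen after seeing the data, the offset by chromosome. Tables and plots used Python 3.11.15, pandas 2.3.3, NumPy 2.4.6, SciPy 1.17.1 and matplotlib 3.10.9.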

Additional observations from a re-analysis of the deposited data

How the results depend on the processing

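The Golgi genes numbered 10 higher and 4 lower in the main comparison. They numbered 21 and 7 with voom, 6 and 2 at an adjusted p of 0.01, 1 and 0 in the test against a fold change of 1.5, and 7 and 1 relative to the chromosome median. Leaving out 1 sample gave 6 to 19 higher and 1 to 6 lower, with a median log2 fold change of 0.05 to 0.09 against 0.08. For the other early secretory genes, 11 higher and 6 lower became 26 and 19 with voom, 4 and 2 at 0.01, 2 and 1 against a fold of 1.5, 6 and 1 relative to the chromosome, and 5 to 24 and 2 to 19 with 1 sample left out. Over all genes, 2539 higher and 2679 lower became 3977 and 4094 with voom, 1584 and 1545 at 0.01, and 1081 and 1118 against a fold of 1.5. With 1 sample left out, increases over all genes ranged from 1861 to 3700 and decreases from 1784 to 3776. Among the 25 genes given with values, signs turned for Golph3 (-0.03 without 393P_vector replicate 2, against 0.12, and up to 0.43 without replicate 3) and, relative to the chromosome, for Trappc1 (-0.09), Trappc8 (-0.09) and Tmed7 (-0.12). Signs among the other Golgi genes turned as well, such as Yipf3 relative to the chromosome (-0.05 to 0.38) and Trappc2 without 393P_vector replicate 3 (-0.45 to 0.02). Causes of these shifts were not tested. DESeq2's size factors and the filter of 10 counts in every sample left the call of each of the 25 genes given with values as it was, and DESeq2's Wald test added 3 and lost none.

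Pairing by replicate number was not evident. Deviations from the group means correlated at a mean r of 0.0118 (-0.205 to 0.279) for equal numbers and -0.011 for unequal ones. With 3 samples per group, a weak pairing cannot be told from none. With the replicate number as a block, 8 Golgi genes were higher and 2 lower. Over all genes the same fit gave 2180 higher and 2256 lower, against 2539 and 2679 in the main comparison.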
